A study of Mus musculus with 18 samples.

Results

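Multipotent progenitors were set against short-term stem cells of mice given the oil vehicle alone, with 3 libraries of each, 6 of the 18 in the series, and all 14419 genes of the deposited table. MPP stands for the multipotent progenitors and ST for the short-term haematopoietic stem cells. All of these cells were isolated from bone marrow, the donors being adult C57BL/6 males dosed with corn oil. Dosing lasted 1 week for the MPP libraries but 2 weeks for the ST libraries, so population and duration differ together and their parts in any difference cannot be told apart. The other libraries were MPPs and ST cells after tamoxifen (1 and 2 weeks) and long-term stem cells (LT) after oil or tamoxifen (2 weeks), with 3 libraries in each of these 4 groups. The series calls the 3 libraries of a group biological replicates. How the cells were gated, and how many mice went into a library, the sources used here do not say.

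Blood is made by a hierarchy in which stem cells give rise to multipotent progenitors, and these in turn to progenitors of single lineages. ST cells can rebuild the blood of an irradiated host for a limited time. MPPs keep the choice between lineages but have lost most of the capacity to renew themselves. Many MPPs carry the cytokine receptor Flt3 and transcribe early lymphoid genes at a low level, which is known as lymphoid priming, while some stem cells transcribe genes of megakaryocytes, the cells that shed platelets.

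In MPPs 19 of 30 measured genes of lymphoid priming and 23 of 40 cytokine receptor genes were higher than in ST cells by limma, against 16.8% of all genes. Lower in MPPs were 16 of 29 megakaryocyte genes, 13 of 27 erythroid genes, 4 of 8 mast cell and basophil markers, 17 of 40 genes of the long-term stem cell programme and 27 of 38 nuclear genes of the respiratory chain, against 13.9% of all genes. The long-term programme also had 5 higher members. Among genes whose mean over the 6 libraries exceeded that of the median gene (20.2 normalised CPM) and whose groups did not overlap, the 12 largest rises belonged to Tlr7, Sema3d, Dntt, Mn1, Il1r1, Lcn2, Cd33, Notch1, Igf2r, Camk1d, Satb1 and Flt3. The 12 largest falls under the same limits belonged to Mfsd2b, Pf4, Car1, Cpa3, Itga2b, Ctsg, Pcdh7, Sox6, S100a1, Cd55, Pdzk1ip1 and Apoe. Their log2 fold changes ran from 2.32 (Flt3) to 3.85 (Tlr7) and from -2.07 (Apoe) to -3.85 (Mfsd2b). The lack of overlap was a condition for naming these genes, so it is no result about them here or below.

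Of the 14419 genes, 4430 (30.7%) passed an adjusted p of 0.05 in limma, a linear model with a moderated variance, and 5922 (41.1%) had an unadjusted p under 0.05. MPPs were higher in 2423 of the 4430 (16.8% of all genes) and lower in 2007 (13.9%), and 579 (4.02%) and 868 (6.02%) of these changed over 2-fold. The 3 MPP libraries lay above all 3 ST libraries in 3245 genes (22.5%) and below them in 3294 (22.8%). The median gene stood at -0.05. Values are called normalised CPM here. They are reads plus 0.5, times 1 constant per library, and sum to 1034041 to 1051612 in the MPP libraries and 900541 to 992452 in the ST libraries. Fold changes are MPP over ST on the scale of log2(value + 1), and an error after a fold change is its standard error.

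**Figure D1:**
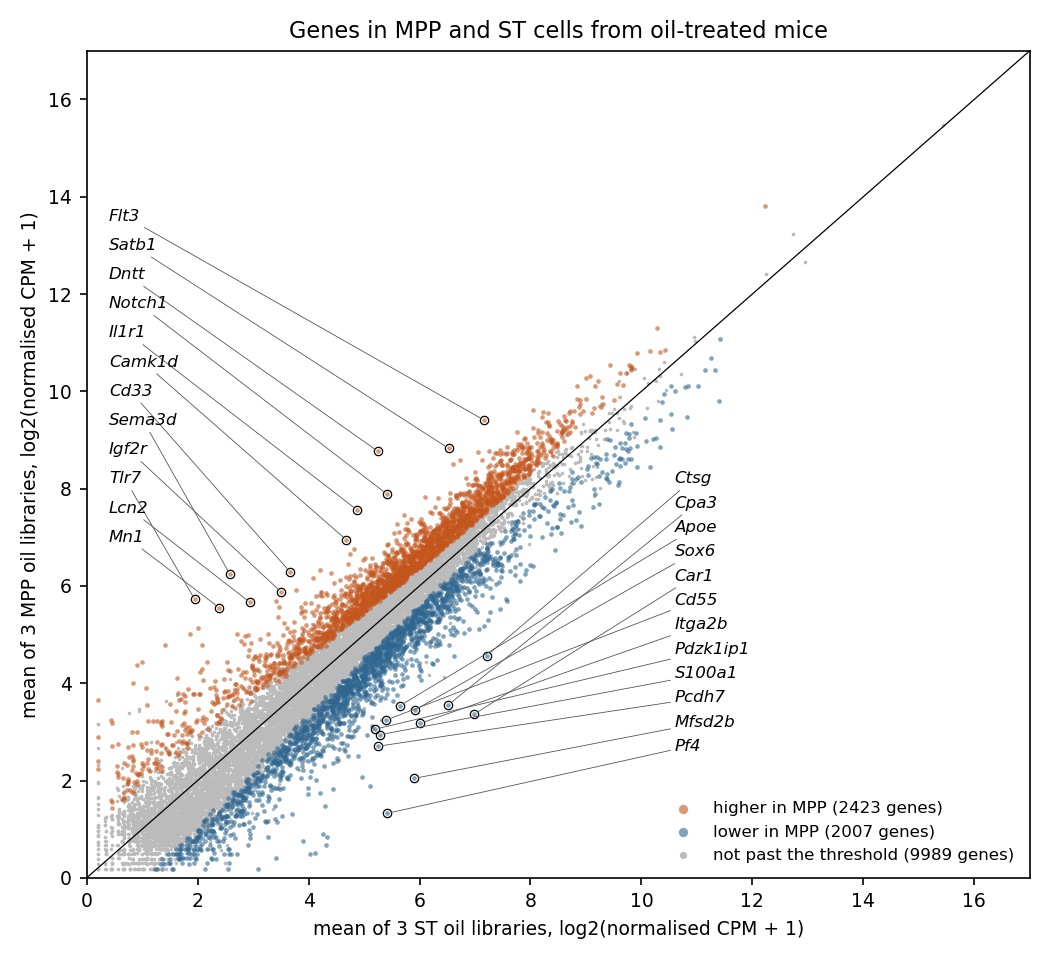
Mean of the 3 MPP oil libraries (vertical) against the mean of the 3 ST oil libraries (horizontal) for each of 14419 genes, both in log2(normalised CPM + 1), with the line of equality. Orange points are the 2423 genes higher in MPPs, blue points the 2007 lower in MPPs and grey points the 9989 that did not pass, and the ringed points carry the names of the 12 largest rises and the 12 largest falls among genes above the median level whose groups did not overlap.

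Several of these genes stand on none of the lists. Sema3d, a secreted guidance factor, had 111, 95 and 18.6 in MPPs, against 8.72, 0.497 and 5.72 in ST cells (limma adjusted p = 0.00343, log2 fold change 3.69 ± 0.81), a call that was lost when the 6 oil libraries were fitted alone (limma adjusted p = 0.0718). Camk1d, a calcium-dependent kinase, had 118, 142 and 108 in MPPs, against 24.2, 14.1 and 35.3 in ST cells (limma adjusted p = 6.52e-08, log2 fold change 2.36 ± 0.23). Both were higher in every MPP library, and the remaining ones were lower in every MPP library, which the choice of genes without overlap had fixed beforehand. Pcdh7, a cell adhesion protein, had 5.81, 5.87 and 4.88 in MPPs, against 46.6, 38.9 and 26.2 in ST cells (limma adjusted p = 1.15e-07, log2 fold change -2.52 ± 0.27). Cd55, which protects cells from complement, had 5.81, 7.02 and 12.5 in MPPs, against 33.1, 59.1 and 31.2 in ST cells (limma adjusted p = 2.49e-05, log2 fold change -2.16 ± 0.31). Apoe, a lipid carrier, had 11.2, 9.6 and 11 in MPPs, against 39.3, 65.1 and 42.4 in ST cells (limma adjusted p = 0.000192, log2 fold change -2.07 ± 0.35). S100a1, a calcium-binding protein, had 7.43, 5.87 and 6.73 in MPPs, against 35.7, 49.9 and 28 in ST cells (limma adjusted p = 1.36e-06, log2 fold change -2.31 ± 0.29).

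The promoters of 4 genes that stand for the lymphoid and the megakaryocyte differences are printed here, since members of both groups moved together. Dntt and Flt3 were higher in MPPs, and Pf4 and Itga2b were lower. The sequences are those of RefSeq in build GRCm38.p6 and run 5′ to 3′ from 250 bases before to 50 bases after the annotated start of the gene, on the gene's strand. They lie at chr19:41029025-41029324 (plus strand) for Dntt, chr5:147400440-147400739 (minus strand) for Flt3, chr5:90772185-90772484 (plus strand) for Pf4 and chr11:102469834-102470133 (minus strand) for Itga2b. Capitals mark the letters GATAA, read by GATA factors, and GGAAG, read by ETS factors, each on either strand, so that they also appear as TTATC and CTTCC.
Dntt: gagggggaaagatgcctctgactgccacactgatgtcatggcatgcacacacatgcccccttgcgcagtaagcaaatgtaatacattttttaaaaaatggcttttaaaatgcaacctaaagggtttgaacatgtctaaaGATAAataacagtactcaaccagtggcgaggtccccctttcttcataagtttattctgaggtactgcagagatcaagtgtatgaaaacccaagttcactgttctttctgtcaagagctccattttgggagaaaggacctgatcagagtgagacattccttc
Flt3: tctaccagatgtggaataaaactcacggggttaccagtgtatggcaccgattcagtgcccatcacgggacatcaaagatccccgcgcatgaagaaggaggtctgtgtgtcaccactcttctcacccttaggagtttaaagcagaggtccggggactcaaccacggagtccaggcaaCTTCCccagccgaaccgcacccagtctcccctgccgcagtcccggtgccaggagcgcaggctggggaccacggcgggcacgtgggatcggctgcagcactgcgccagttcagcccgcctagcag
Pf4: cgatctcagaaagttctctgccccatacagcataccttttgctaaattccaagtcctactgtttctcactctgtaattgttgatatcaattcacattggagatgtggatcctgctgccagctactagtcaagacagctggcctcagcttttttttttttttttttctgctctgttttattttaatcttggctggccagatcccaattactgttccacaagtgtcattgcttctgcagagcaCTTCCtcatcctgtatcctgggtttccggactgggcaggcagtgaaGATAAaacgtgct
Itga2b: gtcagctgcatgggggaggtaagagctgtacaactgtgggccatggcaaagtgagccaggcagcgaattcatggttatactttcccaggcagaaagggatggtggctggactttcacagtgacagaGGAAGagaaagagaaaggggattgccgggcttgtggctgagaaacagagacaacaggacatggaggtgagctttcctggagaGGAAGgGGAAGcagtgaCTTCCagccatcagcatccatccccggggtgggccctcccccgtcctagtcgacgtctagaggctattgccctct
Dntt held 1 match to GATAA and 0 to GGAAG, Flt3 0 and 1, Pf4 1 and 1, and Itga2b 0 and 4. Of all 32851 promoter windows of this length, 25.4% held GATAA and 71.4% held GGAAG. Windows were found for 11 of the 16 megakaryocyte genes that were lower in MPPs, and 4 of these 12 windows held GATAA and 9 held GGAAG. They were found for 17 of the 19 lymphoid genes that were higher, and 4 of these 29 windows held GATAA and 22 held GGAAG. These counts describe the letters in the windows and nothing of what binds there.

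The 6 libraries held from 3664203 to 3928747 reads in listed genes in MPPs and from 2728800 to 3267591 in ST cells. A value near 1 normalised CPM therefore rests on a few reads per library. The mitochondrial ribosomal RNAs took 20.5% to 21.7% of the reads in MPPs and 18.3% to 21.9% in ST cells. Library A of the LT cells after tamoxifen, which enters only the shared variance, stood apart, with 25.5% mitochondrial ribosomal RNA and a chi-square per degree of freedom of 26.1 and 27.1 against the other two of its group, which differed from each other by 3.28. Without it 2719 genes were higher in MPPs and 2373 lower. Of the variance over all 18 libraries, 28.3% and 20.2% lay on the first 2 principal components, and the ST libraries stood apart from the MPP and LT libraries on the second.

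The difference between MPPs and ST cells also followed the length of the transcript. The mean length of the longest annotated transcript, weighted by reads, was 4925 to 4932 bases in MPPs and 4176 to 4427 bases in ST cells, and 4893 to 4935 bases in LT cells after oil. In the tenth of genes with the shortest transcripts the median log2 fold change of MPP over ST was -0.60, and in the tenth with the longest it was 0.40. Among the shortest 1.38% of genes were higher and 32.0% lower, and among the longest 46.3% were higher and 5.18% lower. The same medians were -0.26 and 0.29 between MPPs and ST cells after tamoxifen, -0.05 and 0.02 between MPPs and LT cells in oil, and 0.51 and -0.40 between ST and LT cells in oil. Across 13693 genes with a known length (94.97%), Spearman's rho between length and fold change was 0.44, and -0.04 between GC content and fold change. Genes are not independent replicates, so these carry no p.

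The sample titles number the MPP and LT libraries together and the ST libraries anew, so a series of libraries, if there was one, cannot be told apart from the population. The main list counts below are therefore also given after a trend on length and GC content was removed from each library, where 1619 genes were higher in MPPs (11.2%) and 1764 lower (12.2%). Of the 2423 genes higher in MPPs as fitted, 1404 kept the call, as did 1293 of the 2007 lower ones, and 0 passed in the opposite direction. The split of the calls also moved with the scaling. MPPs were the higher group in 54.7% of all calls as the authors scaled the values, in 47.9% with the trends removed and in 41.5% when the libraries were scaled without mitochondrially encoded genes, which lowered the median gene by 0.107.

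**Figure D2:**
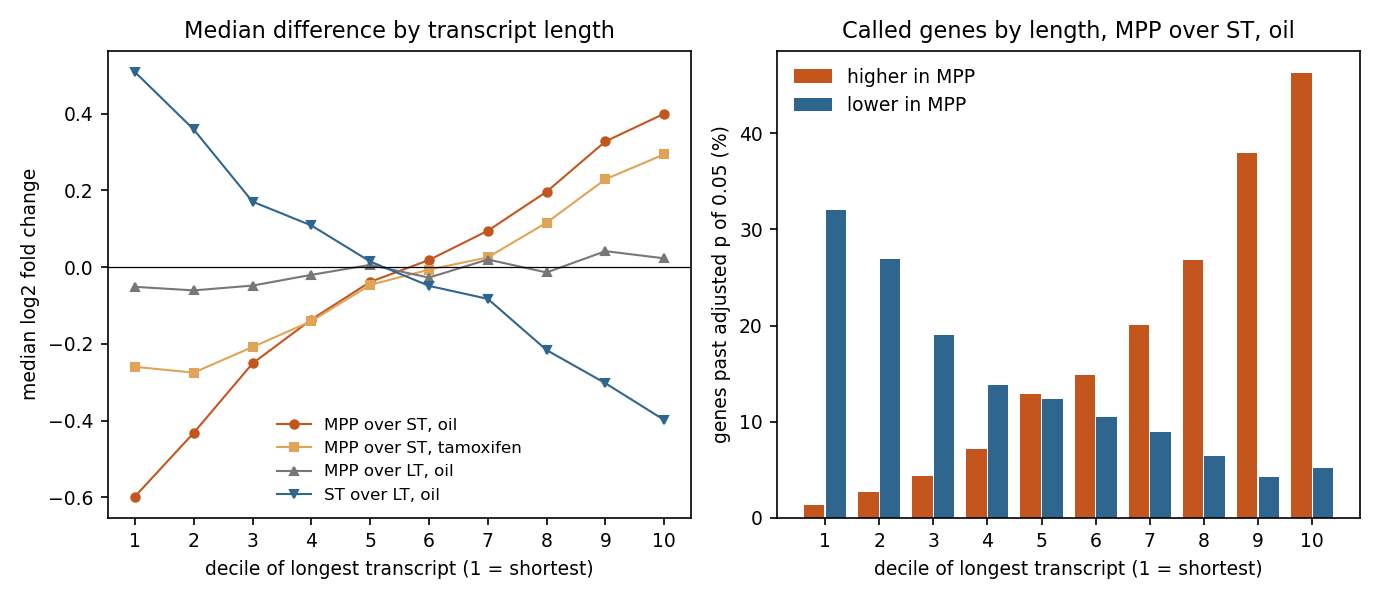
Genes in 10 equal groups by the length of the longest transcript, from the shortest (1) to the longest (10). Left, the median log2 fold change of MPP over ST in oil runs upward from -0.60 to 0.40, MPP over ST after tamoxifen runs the same way, ST over LT runs downward and MPP over LT stays near 0. Right, bars give the percentage of genes higher (orange) and lower (blue) in MPPs that passed an adjusted p of 0.05 in oil.

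The surface antigens by which stem and progenitor cells are sorted were set beside the labels, with all measured members of the list given. Slamf1, which encodes CD150 and marks stem cells, had 0.405, 1.29 and 0.66 in MPPs, against 25.2, 24 and 8.06 in ST cells. It was near 0 in every MPP library and higher in every ST library (limma adjusted p = 8.51e-08, log2 fold change -3.37 ± 0.35). Flt3, the receptor of a growth factor for early progenitors, had 695, 703 and 646 in MPPs, against 135, 93 and 197 in ST cells (limma adjusted p = 0.000506, log2 fold change 2.32 ± 0.38). The lowest MPP library stood more than 3 times above the highest ST library. Cd34, an antigen gained on leaving the long-term state, had 607, 572 and 563 in MPPs, against 314, 358 and 458.3 in ST cells (limma adjusted p = 0.0479, log2 fold change 0.64 ± 0.23). The Cd34 groups did not overlap, but the call was lost under 10 of the 19 alternatives, among them leaving out any 1 of the 3 MPP libraries or ST library A or B (limma adjusted p 0.0865 to 0.172).

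Of the 21 antigens, 7 were higher and 6 lower in MPPs. Besides Flt3 and Cd34 the higher ones were Cd93, Kit, Eng, Il7r and Ly6a. Cd93, a lectin-like receptor of early haematopoietic and endothelial cells, had 748, 823 and 789 in MPPs, against 227, 255 and 305 in ST cells (limma adjusted p = 7.79e-09, log2 fold change 1.59 ± 0.14). Its MPP libraries all stood over 2 times above the ST libraries. Kit, the receptor of stem cell factor, had 873, 909.9 and 794 in MPPs, against 559, 629.8 and 707 in ST cells (limma adjusted p = 0.00261, log2 fold change 0.45 ± 0.11), a call that was lost with the length and GC trends removed (limma adjusted p = 0.226). Eng, a co-receptor for TGF-beta known as endoglin, had 110.4, 98.4 and 102 in MPPs, against 52.8, 77 and 71.7 in ST cells (limma adjusted p = 0.00305, log2 fold change 0.63 ± 0.16). The Kit and Eng libraries did not overlap between the groups, but they lay much closer together than those of Cd93. Il7r and Ly6a overlapped between the groups. Il7r had 14.2, 20.2 and 7 in MPPs, against 5.1, 10.4 and 1.03 in ST cells, and its call (limma adjusted p = 0.0256) was lost without MPP library 1, MPP library 2 or ST library C (0.0783, 0.136 and 0.217). Ly6a, which encodes Sca-1, had 88.2, 64.6 and 69.6 in MPPs, against 37.7, 33 and 72.3 in ST cells, and its call (limma adjusted p = 0.0379) was lost without MPP library 1 or 3 or ST library A or B (0.0671 to 0.18). The count of 7 fell to 4 without MPP library 1.

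The 6 lower antigens were Slamf1, Tek, Esam, Fcgr3, Cd9 and Thy1, and each kept its call under all 19 alternatives, except that Thy1 was too low to enter the strict filter, 1 of the 19. Tek, the receptor of the quiescence factor angiopoietin 1, had 6.35, 5.01 and 4.36 in MPPs, against 22.2, 27.7 and 17.4 in ST cells (limma adjusted p = 4.37e-07, log2 fold change -1.90 ± 0.22). Esam, an adhesion molecule of endothelium and stem cells, had 3.92, 3.58 and 4.36 in MPPs, against 14, 21.4 and 19.8 in ST cells (limma adjusted p = 1.57e-05, log2 fold change -1.95 ± 0.30). Both genes were over 4 times lower in MPPs on average, with no overlap. Fcgr3, a low-affinity Fc receptor of myeloid cells, had 1.76, 2.44 and 1.98 in MPPs, against 10, 10.1 and 10.1 in ST cells (limma adjusted p = 0.000182, log2 fold change -1.86 ± 0.35). Cd9, a tetraspanin of megakaryocyte-biased stem cells, had 20.4, 20.2 and 26.5 in MPPs, against 52.2, 51.9 and 42.6 in ST cells (limma adjusted p = 0.000443, log2 fold change -1.10 ± 0.22), and Thy1, an antigen of stem cells and T cells, had 3.38, 3.01 and 3.3 in MPPs, against 7.74, 17.4 and 8.36 in ST cells (limma adjusted p = 0.00317, log2 fold change -1.44 ± 0.36).

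The remaining 8 antigens did not pass. Cd48, commonly used to part MPPs from stem cells, had 68, 82.6 and 65.3 in MPPs, against 108, 108 and 81.9 in ST cells (limma adjusted p = 0.126). No difference between MPPs and ST cells was thus shown for it in this fit, which does not show that there is none. LT cells in oil averaged 11.25, below both. The log2 fold change was 2.62 for MPP over LT (limma adjusted p = 2.17e-09) and 3.08 for ST over LT (5.24e-10). Cd27 had 218, 198 and 207 in MPPs, against 217, 239 and 267 in ST cells (0.255) and Cd244 had 37.7, 36.5 and 40.5 in MPPs, against 46.9, 43.6 and 34.5 in ST cells (0.846). The ranges of both groups overlapped for all 3 of these genes, narrowly for Cd48 and Cd27. Procr, the protein C receptor of stem cells, had 22.3, 20.8 and 12.3 in MPPs, against 26.5, 33.3 and 38.8 in ST cells with no overlap, but also missed the threshold (limma adjusted p = 0.118). Vcam1, Itga2 and Prom1 had limma adjusted p-values of 0.0785, 0.675 and 0.927.

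Marker lists of both populations are given too. They were chosen with earlier results of these data known, so they cannot test the labels. Of 14 multipotent progenitor markers, 10 were higher and 0 lower in MPPs, with a summed level of 3086 to 3121 in MPPs and 1250 to 1639 in ST cells. Cd48, Cd27 and Ccr2 were among the 4 that did not pass. Of 14 stem cell markers, 6 were lower in MPPs and 3 higher (Hlf, Mecom and Ly6a), with summed levels of 1641 to 1887 in MPPs and 1334 to 1641 in ST cells. The count of 3 fell to 1 without MPP library 3 or ST library A or B.

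Genes of lymphoid priming were higher in MPPs as a group. Of 30 measured genes, 19 (63.3%) were higher in MPPs and 1 was lower, with a median log2 fold change of 1.08. With the trends removed 15 were higher and 2 lower, with a median of 0.86, and leaving out 1 library left 16 to 18 higher. The transcripts of the higher members were long (median 4534 bases, against 3220 bases for all genes). In a bulk library, fewer cells of a type and less RNA per cell cannot be told apart, so a higher level can belong to more cells or to more RNA in each.

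Dntt, the terminal transferase that adds bases at the joints of antigen receptor genes, had 394, 451 and 463 in MPPs, against 35.7, 27.3 and 47.6 in ST cells (limma adjusted p = 8.97e-05, log2 fold change 3.56 ± 0.47). Satb1, a chromatin organiser needed for lymphoid progenitors, had 448, 464 and 447 in MPPs, against 86.4, 64.5 and 122 in ST cells (limma adjusted p = 2.63e-06, log2 fold change 2.35 ± 0.25). Notch1, the receptor that directs T cell fate, had 233, 261 and 214 in MPPs, against 44.3, 33.6 and 46.8 in ST cells (limma adjusted p = 1.17e-09, log2 fold change 2.49 ± 0.18). In all 3 genes the MPP libraries agreed closely and the ST libraries stood several times lower, without overlap.

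Rag2 and Rag1, which together cut antigen receptor genes, were chosen after their values were seen, and so was Blnk, an adaptor of B cell receptor signalling. Rag2 had 18.5, 28.5 and 32.3 in MPPs, against 5.76, 0.828 and 3.08 in ST cells (limma adjusted p = 9.72e-06, log2 fold change 2.86 ± 0.42). Rag1 had 7.16, 7.59 and 2.24 in MPPs, against 0.823, 0.828 and 0.733 in ST cells (limma adjusted p = 0.00201, log2 fold change 1.77 ± 0.42) and rested on 60 reads in MPPs and 6 in ST cells. Blnk had 11.2, 8.16 and 5.41 in MPPs, against 2.47, 1.82 and 1.32 in ST cells (limma adjusted p = 0.000498, log2 fold change 1.66 ± 0.34). All 3 were low in absolute terms and did not overlap between the groups.

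Broader regulators on the list rose less. Ikzf1, the zinc finger factor Ikaros, had 731, 710.5 and 672 in MPPs, against 294, 254 and 334 in ST cells (limma adjusted p = 9.66e-08, log2 fold change 1.27 ± 0.13). Mef2c, a factor that favours lymphoid over myeloid fate, had 490.4, 522 and 445 in MPPs, against 205, 219.5 and 233 in ST cells (limma adjusted p = 2.04e-07, log2 fold change 1.14 ± 0.13), and Tcf4, an E protein, had 312, 285 and 299 in MPPs, against 125, 119 and 139.7 in ST cells (limma adjusted p = 3.82e-08, log2 fold change 1.22 ± 0.12). Each was over 2 times higher in MPPs as a group, with the trends removed the log2 fold changes were 1.00, 0.85 and 0.86, and all 3 passed under every alternative. The 1 lower gene was Lef1, whose call was lost without MPP library 3 or ST library B.

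Markers of committed B cells moved in part with this group. Ighm, the heavy chain of immunoglobulin M, had 392, 374 and 326 in MPPs, against 67, 121 and 100.1 in ST cells (limma adjusted p = 0.0186), and its call was lost without MPP library 1 or 2 or ST library A (0.0523 to 0.0686). The other 8 measured B cell markers did not pass, and 5 of the 14 listed were not analysed here. Cd79a, a signalling chain of the B cell receptor, had 1.76, 1 and 0.924 in MPPs, against 1.81, 4.8 and 0.147 in ST cells. The summed level of the 9 markers was 356 to 434 in MPPs and 82.8 to 169 in ST cells, most of it from Ighm alone. The part of B cells in the lymphoid result was not tested.

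**Figure D3:**
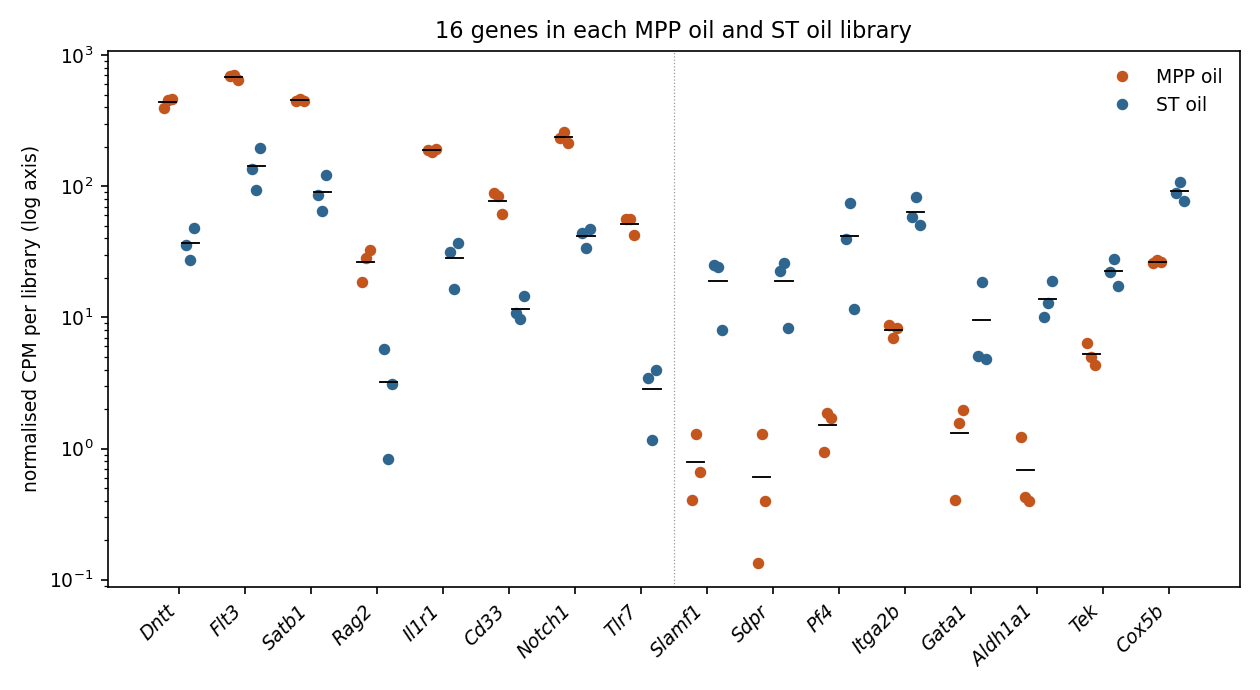
Normalised CPM of 16 genes in each of the 3 MPP oil libraries (orange, left of each pair) and the 3 ST oil libraries (blue, right), on a log axis, with the mean of each group as a bar. The 8 genes left of the dotted line are higher in MPPs and the 8 on its right are lower, with no overlap between the groups in any of them. Lack of overlap was a condition for naming many of them, and Rag2 was chosen after its values were seen. Of all genes 45.3% had groups that did not overlap. A point at 0.135 for Sdpr is a library with 0 reads.

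Cytokine receptors, through which progenitors sense growth and immune signals, were mostly higher in MPPs where they passed. Of 40 receptor genes 23 (57.5%) were higher and 4 lower in MPPs (median log2 fold change 0.54), and 18 and 4 with the trends removed. Il1r1, the signalling receptor of interleukin 1, had 187, 184 and 193 in MPPs, against 31.4, 16.4 and 37.1 in ST cells (limma adjusted p = 2.68e-05, log2 fold change 2.77 ± 0.35). Il6st, the shared chain gp130 of the interleukin 6 family, had 116, 111 and 113 in MPPs, against 33.4, 41.9 and 50.3 in ST cells (limma adjusted p = 7.75e-07, log2 fold change 1.44 ± 0.17). Il6ra, the interleukin 6 receptor itself and chosen after its values were seen, had 43.6, 57.4 and 62.2 in MPPs, against 14, 15.7 and 23.9 in ST cells (limma adjusted p = 0.000105, log2 fold change 1.57 ± 0.27). Both chains of this receptor were thus over 2 times higher in MPPs. Tnfrsf1b, a receptor of tumour necrosis factor, had 62, 53.4 and 55 in MPPs, against 23.9, 19.4 and 32.1 in ST cells (limma adjusted p = 3.35e-05, log2 fold change 1.17 ± 0.19), and Insr, the insulin receptor, had 159, 162 and 153 in MPPs, against 104, 82.7 and 103 in ST cells (limma adjusted p = 7.49e-05, log2 fold change 0.71 ± 0.12).

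The 4 lower receptors were Epor, Cnr2, Ghr and Il1rl1. Epor, the erythropoietin receptor, had 0.676, 1.29 and 0.924 in MPPs, against 6.75, 5.14 and 8.06 in ST cells (limma adjusted p = 2.54e-05, log2 fold change -1.96 ± 0.31), near 0 in MPPs and low in ST cells. The count of 4 fell to 2 without MPP library 1.

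The receptors Tlr7 and Cd33 were among the largest rises, while Csf2rb2 and Csf2rb rose less. Toll-like receptors as a class were not tested. Tlr7, an endosomal sensor of single-stranded RNA, had 56.4, 56.3 and 42.6 in MPPs, against 3.46, 1.16 and 3.96 in ST cells (limma adjusted p = 3.45e-08, log2 fold change 3.85 ± 0.37). Cd33, a sialic acid binding lectin of myeloid cells, had 88, 83.5 and 60.9 in MPPs, against 10.7, 9.78 and 14.5 in ST cells (limma adjusted p = 7.51e-07, log2 fold change 2.63 ± 0.32). The ST libraries were low for both, and the ranges lay far apart. Csf2rb and Csf2rb2 encode near-identical shared chains of the granulocyte-macrophage growth factor and interleukin 3 receptors, so that reads may have been split between them. Csf2rb2 had 21.8, 16.8 and 19.7 in MPPs, against 6.75, 11.4 and 9.23 in ST cells (limma adjusted p = 0.000753, log2 fold change 1.03 ± 0.22), and Csf2rb, chosen after its values were seen, had 100.1, 128 and 112 in MPPs, against 52.8, 69.1 and 69.6 in ST cells (limma adjusted p = 0.0024, log2 fold change 0.82 ± 0.20).

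Granulocyte and monocyte genes as a list went both ways, with 6 of 30 higher and 8 lower in MPPs (6 and 6 with the trends removed, median log2 fold change -0.04). The 6 higher were the receptors Cd33, Csf2rb2, Csf2rb, Csf1r and Cx3cr1 and the transcription factor Irf8. The 8 lower were Ms4a3, Ly6c2, Fcgr3, Plac8, Ctsg, Igsf6, Elane and Prtn3. Ms4a3, a marker of granulocyte-monocyte progenitors, had 2.57, 2.44 and 4.62 in MPPs, against 28.8, 46.6 and 15.7 in ST cells (limma adjusted p = 4.08e-06, log2 fold change -2.81 ± 0.38). Ctsg, the granule protease cathepsin G, had 13.7, 21.9 and 32.3 in MPPs, against 177, 168 and 96 in ST cells (limma adjusted p = 0.00197, log2 fold change -2.67 ± 0.54). Ly6c2, a surface antigen of monocytes, had 15.5, 15.6 and 18.6 in MPPs, against 49.5, 64.8 and 46.8 in ST cells (limma adjusted p = 3.57e-05, log2 fold change -1.63 ± 0.26). The ST libraries were the higher ones in all 3 genes, without overlap. Elane, neutrophil elastase, chosen after its values were seen, had 29.6, 44 and 62.2 in MPPs, against 154, 224 and 142 in ST cells (limma adjusted p = 0.023), and its call was lost without MPP library 1, MPP library 2 or ST library B (0.0578 to 0.0852) and with the trends removed (0.0778).

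Markers of mature neutrophils stood beside these. Lcn2, the iron-binding granule protein lipocalin 2, had 38, 28.5 and 82.2 in MPPs, against 3.13, 12.4 and 4.54 in ST cells (limma adjusted p = 0.00429, log2 fold change 2.76 ± 0.62). Ngp, another granule protein, had 86.9, 63.2 and 172 in MPPs, against 19.9, 38.6 and 22.7 in ST cells (limma adjusted p = 0.0242, log2 fold change 1.88 ± 0.57), and Itgam, the integrin chain CD11b, had 115, 109.6 and 189 in MPPs, against 44.6, 45.9 and 54.4 in ST cells (limma adjusted p = 0.000157, log2 fold change 1.45 ± 0.25). MPP library 3 was the highest library for each, and the call of Ngp was lost under 3 of the 19 alternatives. Of 15 measured markers 6 were higher and 1, Lyz2, was lower (6 and 0 with the trends removed). Without MPP library 3 the higher ones were 2 and without ST library B 3, and Lyz2 lost its call without MPP library 2 or ST library B or C. S100a8 and S100a9, the abundant calcium-binding proteins of neutrophils, did not pass (limma adjusted p = 0.916 and 0.79), at 26.6, 21.9 and 88.3 in MPPs, against 42.3, 81 and 19.2 in ST cells for S100a8. The summed level of the 15 markers was 643 to 1236 in MPPs and 666 to 1039 in ST cells. The part of neutrophils in these results was not tested.

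Megakaryocyte and platelet genes were lower in MPPs in 16 of 29 cases (55.2%) and higher in 2, with a median log2 fold change of -0.56. The median did not move when the 1 member without a read in MPPs was set to its bound of 3 reads over the group. With the trends removed 15 were lower and 2 higher (median -0.65), and the lower members had a median length of 3196 bases, close to that of all genes. Leaving out 1 library left 12 to 15 lower.

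Pf4, the platelet chemokine CXCL4, had 0.946, 1.86 and 1.72 in MPPs, against 39.3, 74.4 and 11.6 in ST cells (limma adjusted p = 0.000408, log2 fold change -3.77 ± 0.63). Itga2b, the platelet integrin chain CD41, had 8.78, 7.02 and 8.32 in MPPs, against 57.8, 82.3 and 50.9 in ST cells (limma adjusted p = 1.47e-08, log2 fold change -2.81 ± 0.25). Sdpr, a caveolar protein that recurs in lists of megakaryocyte-biased stem cells, had 0.135, 1.29 and 0.396 in MPPs, against 22.6, 26 and 8.36 in ST cells (limma adjusted p = 1.23e-07, log2 fold change -3.56 ± 0.37). The MPP libraries were under 2 for Pf4 and Sdpr, and ST library C was the lowest ST library for all 3 genes.

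Further members were lower too. Rab27b, a small GTPase of platelet granule release, had 2.84, 1.86 and 2.24 in MPPs, against 12.7, 17.1 and 15.1 in ST cells (limma adjusted p = 5.66e-07, log2 fold change -2.27 ± 0.27). Vwf, the von Willebrand factor, had 32, 25.1 and 30.2 in MPPs, against 64, 56.2 and 52 in ST cells (limma adjusted p = 6.33e-05, log2 fold change -0.96 ± 0.16), and Gata2, a factor of stem cells, megakaryocytes and mast cells, had 55.8, 56.3 and 54 in MPPs, against 131, 159 and 124 in ST cells (limma adjusted p = 1.05e-05, log2 fold change -1.29 ± 0.18). Vwf was about 2 times lower and Gata2 over 2 times lower in MPPs, without overlap. Treml1 and Gp1bb were chosen after their values were seen. Treml1, a receptor of platelet granules, rested on 1 read in MPPs and 45 in ST cells (limma adjusted p = 0.000147, log2 fold change -2.20 ± 0.40). Gp1bb, a chain of the receptor for von Willebrand factor, had 0 reads in MPPs and 17 in ST cells, and its call was lost without ST library A or C or any 1 of the MPP libraries. The 2 higher members were Mef2c, which also stands in the lymphoid list, and Plek, the platelet kinase substrate pleckstrin, and 1 was higher without MPP library 1 or 3 or ST library A or B.

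Erythroid genes were lower in 13 of 27 cases and higher in 0, with a median log2 fold change of -0.57, and 9 were lower with the trends removed. Car1, the carbonic anhydrase of red cell precursors, had 6.08, 11.9 and 9.9 in MPPs, against 108, 156 and 113 in ST cells (limma adjusted p = 1.49e-05, log2 fold change -3.64 ± 0.38). Mfsd2b, a sphingosine-1-phosphate exporter of red cells and platelets, had 3.11, 2.44 and 3.83 in MPPs, against 59.4, 71.7 and 45.3 in ST cells (limma adjusted p = 1.39e-09, log2 fold change -3.85 ± 0.27). Gata1, the master factor of red cells and megakaryocytes, had 0.405, 1.57 and 1.98 in MPPs, against 5.1, 18.7 and 4.84 in ST cells (limma adjusted p = 0.000534, log2 fold change -2.01 ± 0.41). Car1 and Mfsd2b were over 10 times lower in MPPs, while Gata1 was low in both groups. Aqp1, a water channel, had 1.49, 3.87 and 1.72 in MPPs, against 10.4, 25 and 16.9 in ST cells (limma adjusted p = 0.000817, log2 fold change -2.44 ± 0.45), and Ermap, a red cell membrane protein, had 3.65, 6.16 and 4.62 in MPPs, against 18.6, 15.1 and 18.6 in ST cells (limma adjusted p = 0.00166, log2 fold change -1.68 ± 0.34). The groups did not overlap in either.

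Globin did not follow. Hbb-b1 had 13.7, 12.5 and 2.77 in MPPs, against 8.72, 11.1 and 17.7 in ST cells (limma adjusted p = 0.75) and Hba-a1 6.08, 6.16 and 0.66 in MPPs, against 3.13, 4.14 and 3.08 in ST cells (0.992), both genes with near-identical copies among which reads may be split. The 15 markers of erythroblasts had 8 lower and 0 higher members, with a summed level of 408 to 514 in MPPs and 676 to 908 in ST cells. The part of erythroblasts in the erythroid result was not tested.

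Mast cell and basophil markers were lower as well, in 4 of 8 measured cases (Cpa3, Gata2, Ms4a2 and Hdc) and higher in 0. The call of Hdc was lost without MPP library 1 or 2 or ST library B or C (limma adjusted p 0.0874 to 0.107), among other alternatives. Cpa3, the carboxypeptidase of mast cell granules, had 13.4, 11.9 and 7 in MPPs, against 101, 104 and 68.2 in ST cells (limma adjusted p = 1.41e-07, log2 fold change -2.98 ± 0.31). Ms4a2, a chain of the high-affinity IgE receptor, had 2.03, 5.87 and 2.24 in MPPs, against 11.4, 9.44 and 8.65 in ST cells (limma adjusted p = 0.00584, log2 fold change -1.40 ± 0.38). MPP libraries were below ST libraries throughout for both. The summed level of the 8 markers was 82.9 to 89.9 in MPPs and 222 to 304 in ST cells. A large part of it was Gata2, given above, which is also a gene of stem cells and megakaryocytes. Of the 12 listed genes Cma1, Mcpt4, Tpsab1 and Tpsb2 were not analysed here.

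The long-term stem cell programme was lower in 17 of 40 cases (42.5%) and higher in 5, with a median log2 fold change of -0.54 (16 and 6 with the trends removed). Aldh1a1, a retinaldehyde dehydrogenase, had 1.22, 0.43 and 0.396 in MPPs, against 10, 12.8 and 18.9 in ST cells (limma adjusted p = 1.47e-08, log2 fold change -3.14 ± 0.29). Trpc6, a calcium channel, had 2.84, 2.15 and 4.09 in MPPs, against 9.05, 23 and 17.4 in ST cells (limma adjusted p = 6.31e-06, log2 fold change -2.06 ± 0.29). Pdzk1ip1, a small membrane protein, had 7.7, 6.73 and 7.52 in MPPs, against 25.8, 45.9 and 35.6 in ST cells (limma adjusted p = 1.02e-05, log2 fold change -2.11 ± 0.30). In each the groups stood well apart, with Aldh1a1 near 0 in MPPs. Slamf1, Tek, Esam, Gata2 and Vwf, described above, belong to this list too.

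The 5 higher members were Robo4, Hlf, Mecom, Txnip and Ly6a. Hlf, a leucine zipper factor of stem cells, had 946, 816 and 813 in MPPs, against 390.5, 404 and 623 in ST cells (limma adjusted p = 0.000696, log2 fold change 0.89 ± 0.18). Robo4, a guidance receptor that holds stem cells in the marrow, had 45.5, 41.7 and 33.4 in MPPs, against 17.6, 16.4 and 18 in ST cells (limma adjusted p = 7.99e-05, log2 fold change 1.16 ± 0.20). Neither overlapped, and both passed under every alternative. Mecom, the stem cell factor EVI1 and chosen after its values were seen, had 129, 105 and 182 in MPPs, against 79.8, 88.3 and 111 in ST cells (limma adjusted p = 0.0177), a call that was lost with the trends removed (0.309) and without MPP library 3 or ST library A or B (0.0618 to 0.158). The count of 5 fell to 3 without MPP library 1 or 3 and to 2 without ST library A or B.

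**Figure D4:**
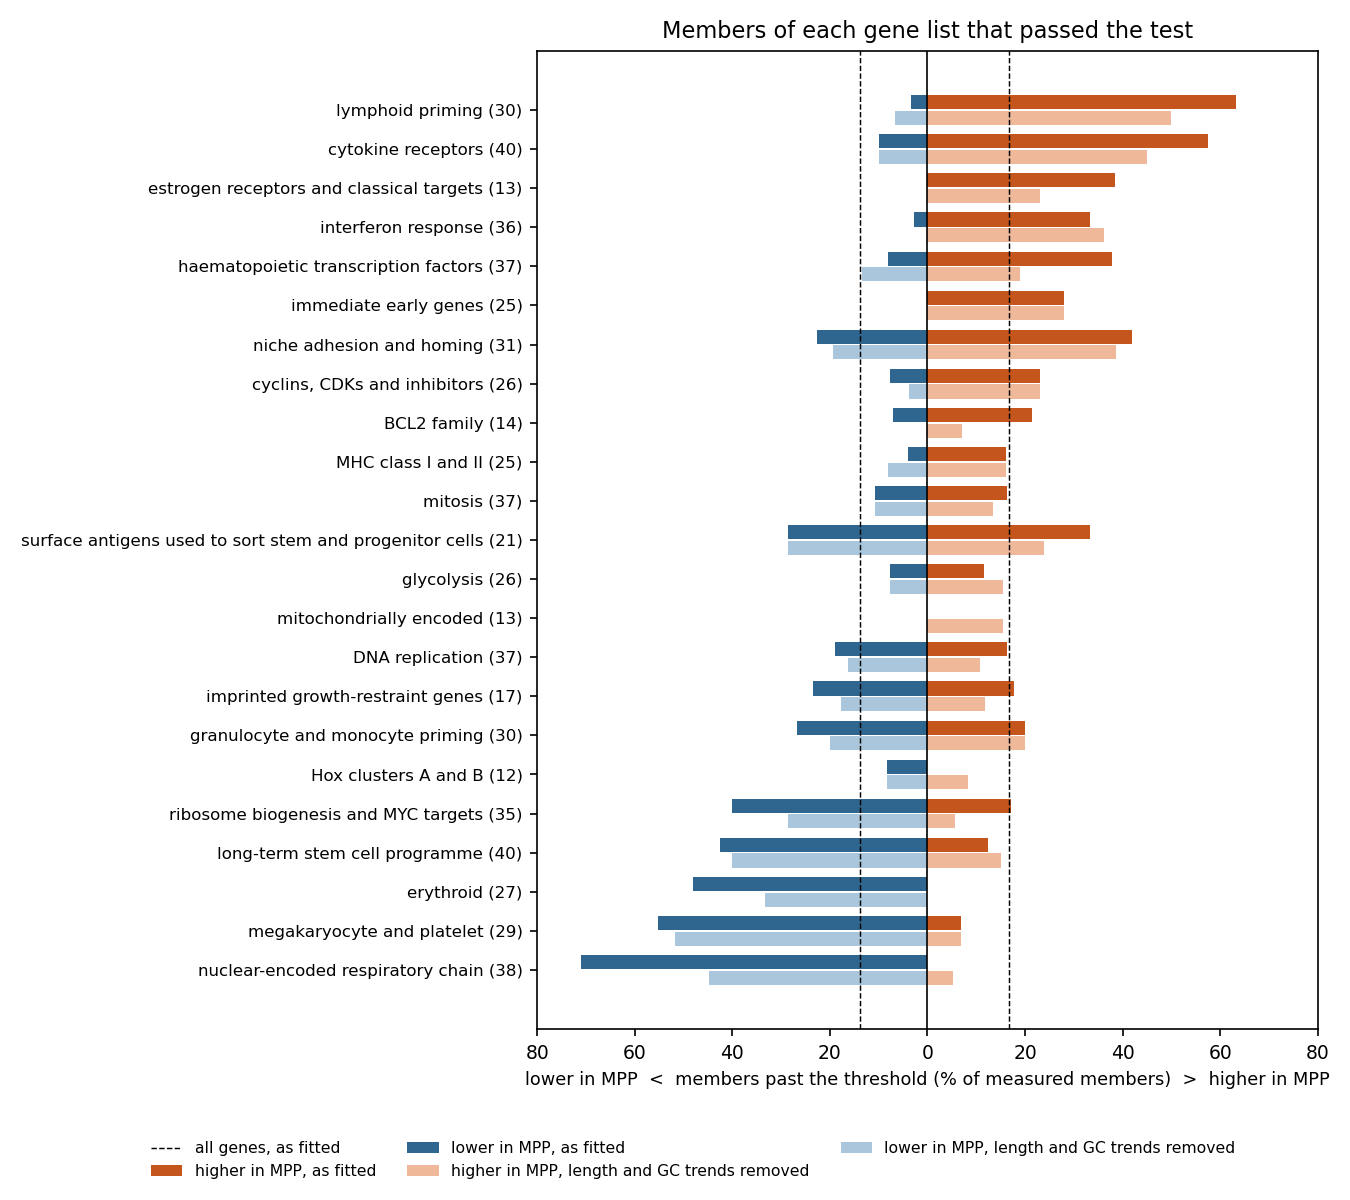
Percentage of the measured members of each list of genes by role, marker lists not included (number measured in brackets), that passed an adjusted p of 0.05, with members higher in MPPs to the right and lower to the left. Dark bars give the fit as reported, pale bars the fit with length and GC trends removed, and dashed lines the share of all genes (16.8% higher, 13.9% lower) in the fit as reported. Among the lists drawn, the respiratory chain, megakaryocyte, erythroid and long-term stem cell lists reach farthest to the left and lymphoid priming and cytokine receptors farthest to the right.

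Among 37 haematopoietic transcription factors 14 were higher and 3 lower in MPPs, and 7 and 5 with the trends removed. Besides Ikzf1 and Hlf, Foxo3, a factor of stem cell maintenance, had 424, 438 and 396 in MPPs, against 154, 178 and 228 in ST cells (limma adjusted p = 1.28e-07, log2 fold change 1.18 ± 0.13), and Etv6, an ETS family repressor, had 692, 659 and 654 in MPPs, against 344, 363 and 376 in ST cells (limma adjusted p = 8.32e-07, log2 fold change 0.89 ± 0.11). The higher members were long (median 5667 bases). The lower ones included Gata2 and Gfi1b, and their count of 3 fell to 1 without ST library B. Mn1, a co-activator with the power to transform progenitors, and Sox6, a factor of red cell maturation, stood among the largest changes. Mn1 had 49.6, 49.1 and 38.9 in MPPs, against 1.48, 3.48 and 7.77 in ST cells (limma adjusted p = 2.16e-06, log2 fold change 3.34 ± 0.40) and Sox6 had 10.9, 9.6 and 9.37 in MPPs, against 53.2, 77.4 and 48.5 in ST cells (limma adjusted p = 1.29e-07, log2 fold change -2.44 ± 0.26). Both stood several times apart in opposite directions, and the transcript of each is long (6860 and 8668 bases).

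Genes of niche adhesion and homing were higher in 13 of 31 cases and lower in 7 (12 and 6 with the trends removed). Cd44, the hyaluronan receptor, had 418, 436 and 395 in MPPs, against 154, 189 and 181 in ST cells (limma adjusted p = 3.82e-08, log2 fold change 1.25 ± 0.12). Itgal, the leukocyte integrin chain LFA-1 alpha, had 159, 159 and 150.4 in MPPs, against 60.1, 44.2 and 56.7 in ST cells (limma adjusted p = 1.48e-06, log2 fold change 1.53 ± 0.20). Cxcr4, the receptor of the marrow chemokine CXCL12, chosen after its values were seen, had 63.9, 71.2 and 69.6 in MPPs, against 36, 41.9 and 32.7 in ST cells (limma adjusted p = 0.00274, log2 fold change 0.88 ± 0.21). All 3 leukocyte adhesion and homing genes were higher in every MPP library. The 7 lower genes were Tek, Esam, Tie1, Itgb3, Jam2, F11r and Jam3. Tie1, chosen after its values were seen, had 29.9, 22.2 and 17.6 in MPPs, against 41.3, 41.6 and 47 in ST cells (limma adjusted p = 0.000873, log2 fold change -0.90 ± 0.20).

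Of 36 interferon response genes 12 (33.3%) were higher and 1 lower in MPPs (13 and 0 with the trends removed), but 7 were higher without MPP library 3 or ST library A. Oas3, a sensor of double-stranded RNA, had 57.4, 58.3 and 71.9 in MPPs, against 19.2, 25.4 and 28.9 in ST cells (limma adjusted p = 3.41e-05, log2 fold change 1.33 ± 0.21), and Ddx58, the RNA sensor RIG-I, had 118, 105 and 110.2 in MPPs, against 66.3, 53.2 and 80.2 in ST cells (limma adjusted p = 0.00119, log2 fold change 0.75 ± 0.17). Gbp6, a guanylate-binding protein with close relatives among which reads may be split, had 16.9, 13.9 and 12 in MPPs, against 0.165, 1.49 and 10.1 in ST cells (limma adjusted p = 0.00321, log2 fold change 2.25 ± 0.52), with ST library C close to the MPP range. Among 25 MHC genes 4 were higher, a share near the 16.8% of all genes, and 1 was lower (2 with the trends removed or without MPP library 3). B2m, 1 of the 4, overlapped between the groups and lost its call under 12 of the 19 alternatives. Cd74, the invariant chain of MHC class II, had 82, 53.7 and 100.5 in MPPs, against 10.4, 21 and 21 in ST cells (limma adjusted p = 2.59e-05, log2 fold change 2.13 ± 0.29), and H2-Ob, a class II chaperone, had 192, 166 and 186 in MPPs, against 54.5, 68.1 and 98.7 in ST cells (limma adjusted p = 8.87e-06, log2 fold change 1.32 ± 0.19). H2-T23, a non-classical class I gene, was lower at 88, 80.1 and 88.6 in MPPs, against 148, 188 and 171 in ST cells (limma adjusted p = 0.00013, log2 fold change -0.97 ± 0.17). None of these 3 overlapped.

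Immediate early genes, which respond within minutes to stimuli and to handling of cells, had 7 of 25 higher and 0 lower members (7 and 0 with the trends removed, median log2 fold change 0.63). The count was unsteady, with 3 without MPP library 1, 2 without MPP library 2, 2 without ST library A and 4 without ST library C. Klf6, a zinc finger factor, had 56.9, 62.3 and 58.7 in MPPs, against 22.9, 24.4 and 35.6 in ST cells (limma adjusted p = 0.000679, log2 fold change 1.10 ± 0.23) and passed under every alternative. Myc, the growth regulator, had 303, 301 and 380.0 in MPPs, against 162, 184 and 228 in ST cells (limma adjusted p = 0.00419, log2 fold change 0.78 ± 0.19), a call that was lost after quantile normalisation (0.0544).

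Cell cycle genes did not move as a block. Of 37 DNA replication genes 6 were higher and 7 lower in MPPs, and of 37 mitosis genes 6 were higher and 4 lower, against 16.8% and 13.9% of all genes. The higher ones had long transcripts (medians of 3972 and 4152 bases) and the lower ones shorter ones (2490 and 3570 bases). Top2a, a topoisomerase of dividing cells, had 672, 932 and 856 in MPPs, against 526, 477 and 404 in ST cells (limma adjusted p = 0.00128, log2 fold change 0.80 ± 0.17). Tyms, the thymidylate synthase, had 81.2, 90.1 and 87.2 in MPPs, against 213, 184 and 113 in ST cells (limma adjusted p = 0.000661, log2 fold change -0.92 ± 0.19), and Cdk1, the kinase that starts mitosis, had 27.2, 42 and 44.5 in MPPs, against 71.9, 74.4 and 51.5 in ST cells (limma adjusted p = 0.00345, log2 fold change -0.80 ± 0.20). Top2a was higher and Tyms and Cdk1 lower in MPPs, each without overlap and also with the trends removed. Mki67, the proliferation antigen Ki-67, did not pass, at 1067, 1509 and 1622 in MPPs, against 983, 1027 and 831 in ST cells (limma adjusted p = 0.17). Without MPP library 2 the higher mitosis genes were 2. The lower ones were 1 without MPP library 1 or 2 or ST library A and 0 without ST library B.

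Of 26 cyclins, kinases and inhibitors 6 were higher (23.1%) and 2 lower (7.69%), against 16.8% and 13.9% of all genes. The lower count was 1 with the trends removed or without MPP library 1 or 3 or ST library B. Ccnd2 and Ccnd1, D-type cyclins that carry growth factor signals to the cycle, were among the higher ones, while the D-type cyclin Ccnd3 did not pass. Ccnd2 had 369, 328 and 272 in MPPs, against 146, 141 and 174 in ST cells (limma adjusted p = 7.36e-07, log2 fold change 1.06 ± 0.13), and Ccnd1 had 64.2, 49.4 and 31.8 in MPPs, against 21.2, 19.4 and 20.4 in ST cells (limma adjusted p = 0.00013, log2 fold change 1.16 ± 0.21). Neither gene overlapped between the groups, and in MPPs the levels of Ccnd1 spread over a 2-fold range.

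The nuclear-encoded respiratory chain had the largest share of lower genes among the lists, 27 of 38 (71.1%), with 0 higher and a median log2 fold change of -0.77. These are short transcripts, with a median of 1046 bases among the lower members, and with the trends removed 17 were lower and 2 higher, with a median of -0.51. Cox5b, a subunit of cytochrome oxidase, had 25.8, 27.4 and 26.5 in MPPs, against 88, 108 and 77.2 in ST cells (limma adjusted p = 1.41e-07, log2 fold change -1.73 ± 0.19). Cox7b, another, had 31.8, 24.5 and 44.8 in MPPs, against 121, 142 and 91.9 in ST cells (limma adjusted p = 2.11e-07, log2 fold change -1.80 ± 0.20), and Ndufa4, a further subunit, had 69, 64 and 99.9 in MPPs, against 178, 206 and 149.9 in ST cells (limma adjusted p = 5.43e-06, log2 fold change -1.20 ± 0.17). The fall was in every MPP library, and with the trends removed the log2 fold changes were -1.23, -1.28 and -0.73, all past the threshold. The tenth of all genes with the shortest transcripts had a median of -0.60 as fitted and -0.12 with the trends removed. The 13 mitochondrially encoded genes of the same chain had 0 members past the threshold by limma in either direction, and the one with the smallest p, mt-Nd6, had 70.7, 58.3 and 65.1 in MPPs, against 27.8, 32.3 and 38.8 in ST cells (limma adjusted p = 0.117). It was the 1 member with an unadjusted p under 0.05, edgeR called 1 member higher and DESeq2 0, and with the trends removed limma called 2 higher.

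Ribosome biogenesis and MYC target genes were lower in 14 of 35 cases and higher in 6 (10 and 2 with the trends removed). The count of 14 fell to 8 without MPP library 2 and to 9 without ST library A or B. Nme1, a nucleoside diphosphate kinase, had 24.5, 28.5 and 27.9 in MPPs, against 62, 69.1 and 47.3 in ST cells (limma adjusted p = 4.07e-05, log2 fold change -1.10 ± 0.18), and Gnl3, nucleostemin, had 81.2, 86.1 and 87.5 in MPPs, against 146, 129.7 and 132 in ST cells (limma adjusted p = 0.000251, log2 fold change -0.67 ± 0.13). Cad, which starts pyrimidine synthesis, went the other way, with 116, 104 and 103 in MPPs, against 54.8, 40.9 and 54.1 in ST cells (limma adjusted p = 3.43e-06, log2 fold change 1.10 ± 0.15). The groups of all 3 genes lay apart. The higher members had a median length of 6959 bases and the lower ones 2686 bases. In glycolysis 3 of 26 genes were higher (11.5%) and 2 lower (7.69%), under the 16.8% and 13.9% of all genes. With the trends removed 4 were higher and 2 lower, and leaving out any library but MPP library 3 left 1 lower. Pdk1, a kinase that keeps pyruvate from the mitochondria, had 122, 121 and 116 in MPPs, against 69.6, 66.8 and 72.3 in ST cells (limma adjusted p = 0.000157, log2 fold change 0.78 ± 0.14).

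Of 17 measured imprinted and related growth genes 3 were higher (17.6%) and 4 lower (23.5%), against 16.8% and 13.9% of all genes. The higher ones were Igf2r, Gnas and Igf1r. With the trends removed 2 were higher and 3 lower, and Igf1r lost its call (limma adjusted p = 0.81). Grb10, an adaptor that restrains growth factor signals, had 13.4, 7.3 and 5.94 in MPPs, against 31.1, 34.3 and 37.4 in ST cells (limma adjusted p = 7.36e-07, log2 fold change -1.91 ± 0.22). Igf2r, the receptor that clears insulin-like growth factor 2, had 48, 57.7 and 66.7 in MPPs, against 6.42, 14.1 and 10.7 in ST cells (limma adjusted p = 7.34e-08, log2 fold change 2.40 ± 0.23). These imprinted growth regulators stood apart in opposite directions, and the count of 4 lower genes was 1 without ST library B and 2 without MPP library 2 or 3 or ST library C. Of 12 measured Hox genes 0 were higher and 1, Hoxb5, was lower (1 and 1 with the trends removed), and its call was lost without MPP library 2 or ST library A. In the BCL2 family of cell death regulators 3 of 14 genes were higher (21.4%) and 1 lower (7.14%), against 16.8% and 13.9% of all genes. With the trends removed 1 was higher and 0 lower. The lower gene, Bax, also lost its call without MPP library 2 or 3 or ST library A or B. Mcl1, a survival factor of stem cells, had 279, 280.3 and 245 in MPPs, against 164, 183 and 179.9 in ST cells (limma adjusted p = 0.00133, log2 fold change 0.61 ± 0.14), a call that was lost after quantile normalisation (0.0724).

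Receptors and classical targets of estrogen were higher in 5 of 13 cases and lower in 0 (3 and 0 with the trends removed, where Esr1 and Pgr lost their calls). Esr1, the estrogen receptor alpha through which tamoxifen acts, had 80.9, 87.5 and 66.9 in MPPs, against 31.4, 31.6 and 47 in ST cells (limma adjusted p = 0.00566, log2 fold change 1.09 ± 0.28). All 3 MPP libraries were above all 3 ST libraries, but with the trends removed the limma adjusted p was 0.0726. Rara, the retinoic acid receptor alpha, had 29.3, 28.2 and 24.9 in MPPs, against 4.77, 8.45 and 16 in ST cells (limma adjusted p = 0.000434, log2 fold change 1.54 ± 0.31). Ccnd1, Sgk3 and Pgr were the other 3.

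Markers of other cells that a sort could hold are given as lists, beside 16.8% of all genes higher and 13.9% lower in MPPs. Of 9 measured T and NK cell markers 2 were higher (Cd4 and Lck) and 1 lower (Trbc1), 1 higher without MPP library 2 or ST library B, with summed levels of 97.3 to 119 in MPPs and 126 to 163 in ST cells, and Cd3e, Cd3g and Cd3d were not analysed here. Cd4 had 13.1, 10.4 and 12 in MPPs, against 1.81, 2.48 and 2.49 in ST cells (limma adjusted p = 0.000137, log2 fold change 1.98 ± 0.36). Of 14 macrophage and monocyte markers 5 were higher and 1 lower, at 185 to 226 in MPPs and 152 to 171 in ST cells. Csf1r, the receptor of macrophage colony stimulating factor, had 19.1, 29.1 and 32.6 in MPPs, against 8.39, 4.14 and 6.01 in ST cells (limma adjusted p = 0.00284, log2 fold change 1.97 ± 0.45). Of 9 dendritic cell markers 3 were higher, Flt3 among them, at 688 to 758 in MPPs and 131 to 235 in ST cells. Flt3 alone made up most of these sums, with 646 to 703 in MPPs and 93 to 197 in ST cells. Itgax, the integrin chain CD11c, had 10.9, 7.59 and 7 in MPPs, against 0.165, 0.166 and 0.733 in ST cells (limma adjusted p = 6.57e-06, log2 fold change 2.81 ± 0.40). The 9 markers of stroma and endothelium had 1 higher member, Pecam1 (2 without ST library C), and 0 lower (2 with the trends removed), at 423 to 487 in MPPs and 300.0 to 413 in ST cells. The part of these cells in the results was not tested.

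The same contrast was made between the MPPs and ST cells of mice given tamoxifen, again at 1 and 2 weeks. Their libraries do not enter the oil means above, but they do enter the shared variance of the fit. After tamoxifen 2820 genes passed (19.6%), 1419 higher (9.84%) and 1401 lower (9.72%) in MPPs. Of the 2423 genes higher in MPPs in oil, 2253 (93.0%) were above 0 there and 1063 (43.9%) passed in that direction, with 5 past the threshold in the opposite one. Of the 2007 lower genes, 1850 (92.2%) were below 0 and 887 (44.2%) passed, with 4 opposite. When the 6 tamoxifen libraries were fitted alone, 1136 of the higher and 964 of the lower genes passed in the same direction. Among all genes 48.8% were above 0 and 51.2% below. The length gradient was present in these libraries too, as given above.

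Of the 138 named genes past the threshold in oil, 92 passed after tamoxifen and 46 did not, and 1, B2m, had the opposite sign. Of 30 lymphoid genes 15 were higher in MPPs after tamoxifen, 14 of them among the 19 higher in oil, and Dntt stood at a log2 fold change of 4.67 (limma adjusted p = 2.09e-05). Of 29 megakaryocyte genes 18 were lower after tamoxifen, 15 of them among the 16 lower in oil. Slamf1, of the stem cell list, stood at -4.03 (1.37e-08). Of the respiratory chain genes 19 of 38 were lower after tamoxifen. The interferon genes had 4 higher and 1 lower member after tamoxifen, against 12 and 1 in oil, and Gbp6 stood at 0.13 (0.899). Ribosome biogenesis genes had 0 higher and 22 lower members after tamoxifen, against 6 and 14 in oil. The DNA replication, mitosis and cyclin lists had 0, 0 and 1 higher members after tamoxifen. In oil each had 6, and 0 of these passed in both. Their lower members were 7, 5 and 5 after tamoxifen, against 7, 4 and 2 in oil. Whether the MPP to ST difference itself changed with treatment was tested for each gene, and 1 of 14419 genes passed by limma (0.00694%), with 1742 (12.1%) at an unadjusted p under 0.05. For Gbp6 this limma adjusted p was 0.283, so no difference between the treatments was shown for it.

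**Figure D5:**
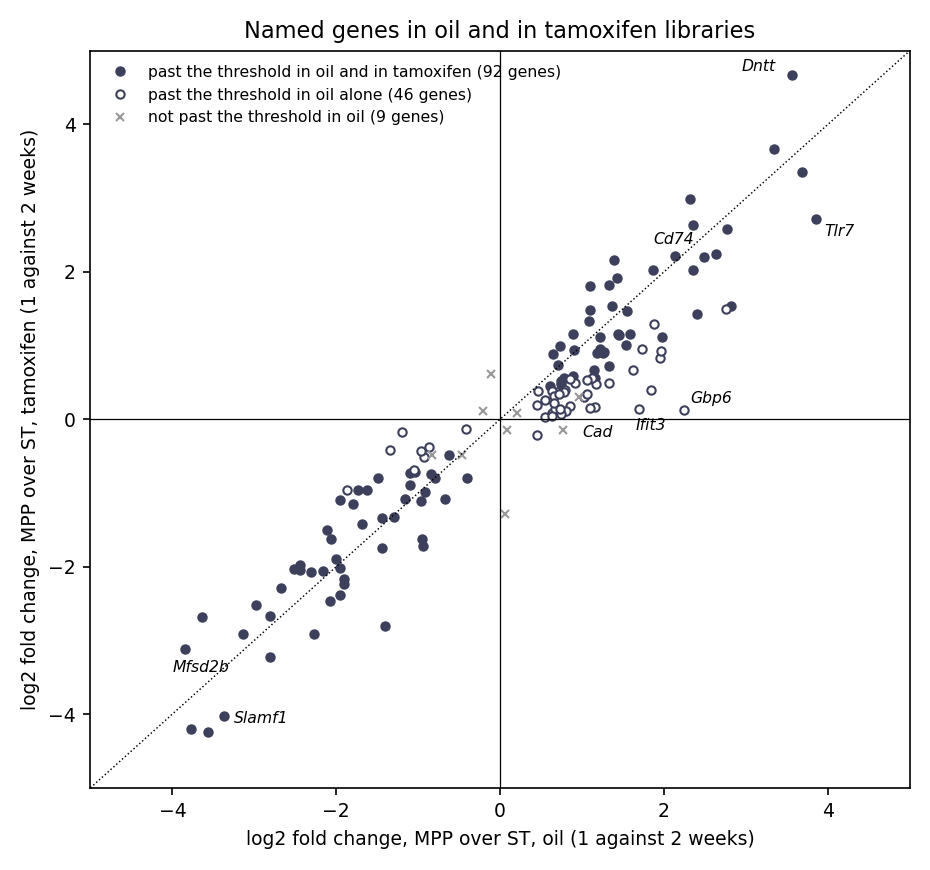
Log2 fold change of MPP over ST after tamoxifen (vertical) against that in oil (horizontal) for the 147 genes named by the rule, from separate libraries in a shared fit. Filled points (92) passed in both, open points (46) in oil alone and crosses (9) did not pass in oil. All but 1 of the genes past the threshold in oil have the same sign after tamoxifen, and the dotted line marks equal changes.

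Long-term stem cells in oil gave the level of another population, at 2 weeks like the ST cells. The LT mean lay nearer to the MPP mean than to the ST mean for 1575 of the 2423 genes higher in MPPs (65.0%) and for 1408 of the 2007 lower ones (70.2%), on the log2(value + 1) scale. The lineage genes did not all follow that. Dntt averaged 19.1 in LT cells, on the ST side, and Car1 averaged 768, above both, while Cox5b averaged 38.1 and Ctsg 2.77, nearer to MPPs. The shares above were taken with the length trend in place. That trend set ST apart from LT cells (medians of 0.51 and -0.40) but hardly MPPs from LT cells (-0.05 and 0.02). The titles also number the MPP and LT libraries together. What part these have in the shares was not tested.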

How the data were processed

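RNA of sorted marrow cells was sequenced after whole-transcriptome amplification, per the labels' protocols. The authors deposited 1 table of 14419 genes in 18 libraries whose values are a linear, normalised signal per gene. Picard, cutadapt, RSEM 1.17, limma and build NCBIM37 are named per the submitters' processing notes, while how values were scaled, and whether counting used strand, the sources used here do not state. In every library 100.0% of values came out as whole reads plus 0.5, times 1 constant (within 0.001 read). Limma 3.58.1 (R 4.3.3) was fitted to log2(value + 1) over all 18 libraries as 6 group means, with a trended, robust variance and Benjamini-Hochberg adjustment over all genes. As alternatives, edgeR 4.0.16 and DESeq2 1.42.0 were run on the recovered counts as 2 of 19 changes of pseudocount, filter, scaling, library set or model. The scripts were tested on simulated data. Genes named were the 12 largest rises and 12 largest falls among called genes with a mean over the 6 oil libraries above the median gene, no overlap and a unique, non-provisional symbol, all surface antigens, up to 5 members with the smallest p from each list, and Esr1, 147 in all. Other genes given with values (such as Mki67, Cd79a, S100a8, S100a9, Hbb-b1 and Hba-a1) were chosen after their values were seen. The members and lists were chosen with earlier results of these data known. P-values measure the spread between these libraries, which may be technical in part.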

Additional observations from a re-analysis of the deposited data

Results flagged for a closer look

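The difference between MPPs and ST cells differed between tamoxifen and oil in 1 gene, Tcof1, which encodes the nucleolar protein treacle. In oil Tcof1 had 111.5, 133 and 98.9 normalised CPM in MPPs, against 46.2, 41.9 and 59.1 in ST cells. After tamoxifen it had 97.6, 92.4 and 97.1 in MPPs, against 97.4, 88.7 and 93.3 in ST cells. The MPP over ST log2 fold change was 0.04 after tamoxifen and 1.21 in oil, and the difference of these, tested as an interaction in limma, was -1.17 (limma adjusted p = 0.0441). The ST oil libraries were the low ones, and all other 9 libraries of the comparison lay above them.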

How the results depend on the processing

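Under the 19 alternatives the counts of genes higher and lower in MPPs kept within 1.5 times of 2423 and 2007. Leaving out 1 of the 6 libraries gave 1876 to 2332 higher and 1438 to 1881 lower. Scaling without mitochondrial genes gave 1821 higher and 2571 lower, edgeR on the recovered reads 2340 and 2000, and DESeq2 2362 and 2033. Of the 138 named genes past the threshold 98 passed under every alternative in which they were tested, 40 lost the call under at least 1 and 0 changed direction. The strict filter left 13 of the 147 named genes untested. No paired analysis was possible because the MPP libraries carry numbers and the ST libraries letters, so the groups share none. Depth limits genes with a few reads, such as Gp1bb.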
